A study of Mus musculus with 64 samples.

Results

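Insertions of transposons in 9 genes of cytokine signalling through Janus kinases (JAKs) and signal transducers and activators of transcription (STATs) were examined: the receptor genes Il6st, Il7r and Il2rb, the kinase genes Jak1 and Jak2, the transcription factor genes Stat3, Stat5a and Stat5b, and the inhibitor gene Socs1. A line of the deposited table was taken when its gene column named one of these 9 genes, out of 17126 genes named there. These were 116 of 385883 lines: PB tumours held 75 of them, SB tumours 15, and the tails of each system 13. Socs1 was named by no line, so 8 of the 9 genes had at least 1.

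The samples came from mice with a PiggyBac (PB) or a Sleeping Beauty (SB) transposase, which cuts transposon copies from a donor array and lets them reinsert, at TTAA motifs for PB and at TA motifs for SB. There were 30 PB tumours and 11 SB tumours, all diffuse large B cell lymphomas, and tail tissue of 12 PB and 11 SB mice as control. Per the methods of the study, the transposase was expressed constitutively from the Rosa26 locus and the transposons were of the ITP lines. The SB mice came from Rosa26SB/+;Blm m3/m3 parents bred to parents of the ITP1-C or the ITP2-M line that were Blm m3/m3 too, so that the tumours and the tails of these crosses share the Blm m3 allele. The genotype labels are IMPB for the PB mice, whose alleles were not restated in the sources used here, and IMSB for the SB mice. All mice had a mixed C57BL/6 × 129Sv × FVB background, and ages were not given. Each sample was bulk DNA, in which an insertion in few cells and an insertion captured by few reads cannot be told apart. The transposase was active in all cells, not only in B cells, so a tumour sample can also hold insertions of non-tumour cells.

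A cytokine bound to its receptor brings the JAKs on the receptor tails together. The JAKs phosphorylate the receptor, STAT proteins dock there, are phosphorylated in turn, pair up and enter the nucleus to switch on target genes. SOCS proteins are among those targets and shut the signal off again. In B lymphoid cells the pathway carries signals of interleukins such as IL-6, IL-7 and IL-21, and it is a recurrent site of mutation in human lymphoma.

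Lines of a sample that fell on the same target motif, searched for within 5 bp of the listed position, made up 1 insertion. Of the 116 lines, 3 had no such motif and were not counted: the single Il2rb line (PB tumour 8, 9 reads) and a pair of Jak1 lines (PB tumour 15 with 2 reads and PB tumour 21 with 9 reads). The 2 lines at Jak2 in PB tail 12 had opposite strands at the same motif and were counted as 1 insertion. This left 72 insertions in PB tumours, 15 in SB tumours, 12 in PB tails and 13 in SB tails.

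The target sites that the results below return to are shown as 30 bases of the plus strand of GRCm38, taken from the RefSeq genome sequence and written 5′ to 3′, with the TTAA motif in capitals. The first 3 are the motifs hit in more than 1 tumour, and the other 3 carry the insertion with the most reads in Jak1, Stat3 and Jak2.
Stat5b intron 1, PB tumours 16, 20 and 30, chr11:100826784-100826813: tgccagttcctctTTAAacaggaagggtgg
Stat5b intron 1, PB tumours 17 and 18, chr11:100828296-100828325: gtgcatcgctcctTTAAagtggactaataa
Jak1 intron 1, PB tumours 7 and 18, chr4:101262950-101262979: atatatgtgttacTTAAattattcagaata
Jak1 intron 1, PB tumour 7 with 516 reads, chr4:101244701-101244730: acaggaggaagccTTAAagggagatttacc
Stat3 intron 1, PB tumour 23 with 69 reads, chr11:100919043-100919072: agcaggttgacatTTAAccaaaagggtcag
Jak2 intron 20, PB tail 12 with 128 reads on each strand, chr19:29301257-29301286: tctcaccactcccTTAAggaagaagtgtta

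The samples held between 756 and 10800 kept insertions each, with medians of 4283 in PB tumours, 3547.5 in PB tails, 3835 in SB tumours and 4361 in SB tails. A larger share of insertions rested on few reads in PB tumours than elsewhere: 36.2% had at least 10 reads there, against 71.45% in PB tails, 59.4% in SB tumours and 70.8% in SB tails. PB tumour 3 stood apart with 5721832 reads on its insertions, where the median PB tumour had 136579. Reads can include PCR copies, so they were not taken to stand for separate molecules. The Poisson and Clopper-Pearson intervals given here cover counting error only, and those of log2 fold changes also take in the spread between samples. Sample names were written in a joined form (22 PB and 11 SB tumours, 5 PB and 7 SB tails) or a separated form (8 PB tumours, 7 PB and 4 SB tails). What this form stands for is not stated, and values within each form are given beside the comparisons. The ranks by reads given below are among all insertions of a sample, those on the sex chromosomes and on chromosome 14 included, which the counts of kept insertions leave out.

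Jak1 carried the most insertions of the 9 genes in PB tumours, and it was hit in more PB tumours than any other member. At least 1 member was hit in 25 of 30 PB tumours, 7 of 12 PB tails, 6 of 11 SB tumours and 5 of 11 SB tails. A PB tumour had between 0 and 8 member insertions (median 2), a PB tail between 0 and 2 (median 1), an SB tumour between 0 and 5 (median 1) and an SB tail between 0 and 5 (median 0). The ranges of all 4 groups overlapped. PB tumour 7 had the most, with 5 insertions in Jak1, 2 in Stat5b and 1 in Jak2, and PB tumour 26 had 4 different members hit, with 1 insertion each in Jak1, Jak2, Stat5b and Il6st.

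**Figure D1:**
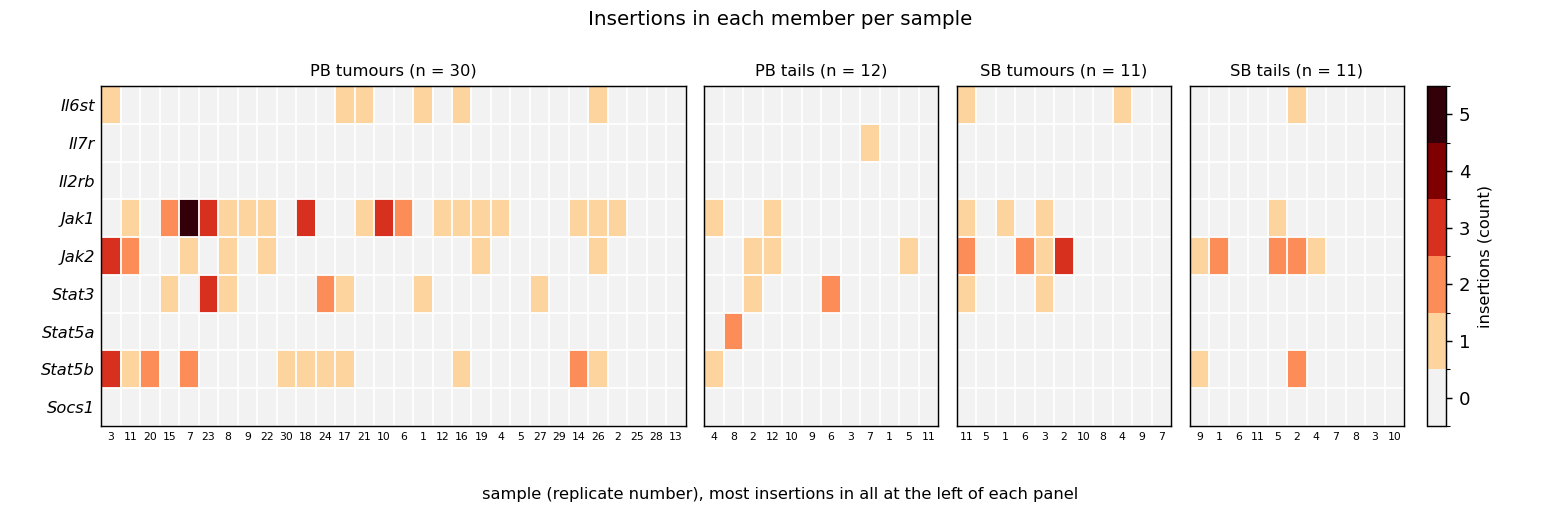
Insertions (count, colour) in each of the 9 members (rows) in every sample (columns, named by replicate number and ordered within each group from the most to the fewest insertions in all). Jak1 was hit in 18 of 30 PB tumours and Jak2 in 4 of 11 SB tumours and 5 of 11 SB tails, while the rows of Il2rb and Socs1 are empty.

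Among the receptors, only Il6st had more than 1 counted insertion. Il6st encodes gp130, the shared signalling chain of the receptors for IL-6 and related cytokines. It had 6 insertions in 6 of 30 PB tumours and none in the 12 PB tails. In SB it had 2 insertions in 2 of 11 tumours and 1 insertion in 1 of 11 tails. The share of PB tumours hit was 20% (95% exact Clopper-Pearson interval 7.71% to 38.6%), and 0 of 12 tails allow a share of up to 26.5% (upper bound of the same interval). These intervals overlap. The 6 PB tumour insertions were spread over the gene, with 4 in introns 5, 7, 8 and 16 and 2 in the 3′ UTR exon, and none of them lay before the start codon. The insertion with the most reads (157) was in intron 5 of PB tumour 3, the library with the most reads of all, where it ranked 1978th of 11816 insertions. In PB tumour 17, an insertion in the 3′ UTR exon with 41 reads ranked 361st of 6375.

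Il7r, the receptor chain for IL-7, had a single insertion, in intron 2 in PB tail 7 with 23 reads. Il2rb, the beta chain of the receptors for IL-2 and IL-15, had no counted insertion, and its 1 uncounted line was in intron 1. In the lines named intergenic within 50 kb of these genes, 10 insertions in 9 PB tumours lay upstream of Il6st, against 1 insertion in PB tails, 1 in SB tumours and 2 in SB tails. Downstream of Il7r there were 6 insertions in 5 PB tumours, none in PB tails and 1 in SB tumours. Upstream of Il7r there were 3 insertions in 3 PB tumours and 1 in PB tails, and downstream of Il6st 1 in a PB tumour. Il2rb had 2 upstream in 2 PB tumours, 1 in PB tails and 1 in SB tails, and 2 downstream in 2 PB tumours. These counts upstream and downstream were not tested and do not allow for the totals of the groups. Kept insertions came to 156875 in PB tumours, 48121 in PB tails, 43809 in SB tumours and 50789 in SB tails.

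Jak1 and Jak2 encode kinases that bind different receptor chains. JAK1 serves the gp130, common gamma chain and interferon receptors, and JAK2 serves the homodimeric receptors such as those of erythropoietin and growth hormone. Jak1 had 30 insertions in 18 of 30 PB tumours. The number per PB tumour was between 0 and 5 with a median of 1, and 12 tumours had none, 12 had 1, 2 had 2 and 4 had 3 or more. In PB tails the number was between 0 and 1 with a median of 0, from 2 insertions in 2 of 12 tails. By count, the highest 6 PB tumours were thus above every PB tail, and the other 24 lay within the range of the tails. These counts do not allow for the totals of the samples. Per 10000 kept insertions of a sample, PB tumours had between 0 and 6.595 (median 1.48), and PB tails between 0 and 2.325. The split by rate was not the same, and more PB tumours were above every PB tail by rate than by count.

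Jak1 received 1.91 insertions per 10000 kept insertions in PB tumours (95% exact Poisson interval 1.29 to 2.73) and 0.416 in PB tails (0.0503 to 1.50). The log2 fold change of tumours over tails was 2.21 ± 1.075 (SE), and the adjusted p was 0.111 in edgeR's quasi-likelihood test with Benjamini-Hochberg adjustment, so that Jak1 was not called. Within the joined names the rates were 2.105 in tumours and 0.468 in tails per 10000, and within the separated names 1.20 and 0.374. Joined names alone gave a log2 fold change of 2.21 with an adjusted p of 0.317, and the separated names held too few Jak1 insertions to be tested. With only the insertions of at least 10 reads, 8 were left in PB tumours and both remained in PB tails, and the log2 fold change was 1.28 with an adjusted p of 0.528. Without PB tail 12, 1 of the 2 tails hit, the log2 fold change was 3.08 with an adjusted p of 0.0707, and without PB tail 4, the other, it was 2.97 with an adjusted p of 0.0901.

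All 30 Jak1 insertions in PB tumours lay in introns, and 25 of them in intron 1, which precedes the start codon. That was 83.3% (65.3% to 94.4%, exact Clopper-Pearson) where 67.6% of the TTAA sites of the gene are before the start codon, a share inside the interval. The other 5 were in introns 2, 4, 10 and 14. Of the 30, 20 had the strand of the gene (66.7%, 47.2% to 82.7%), and over all genes the share was 48.35% of 80407 lines in PB tumours, which is inside the interval as well. Which transposon end the strand column refers to was not given in the sources used here. The 2 insertions of PB tails were in intron 1 too, 1 on each strand.

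**Figure D2:**
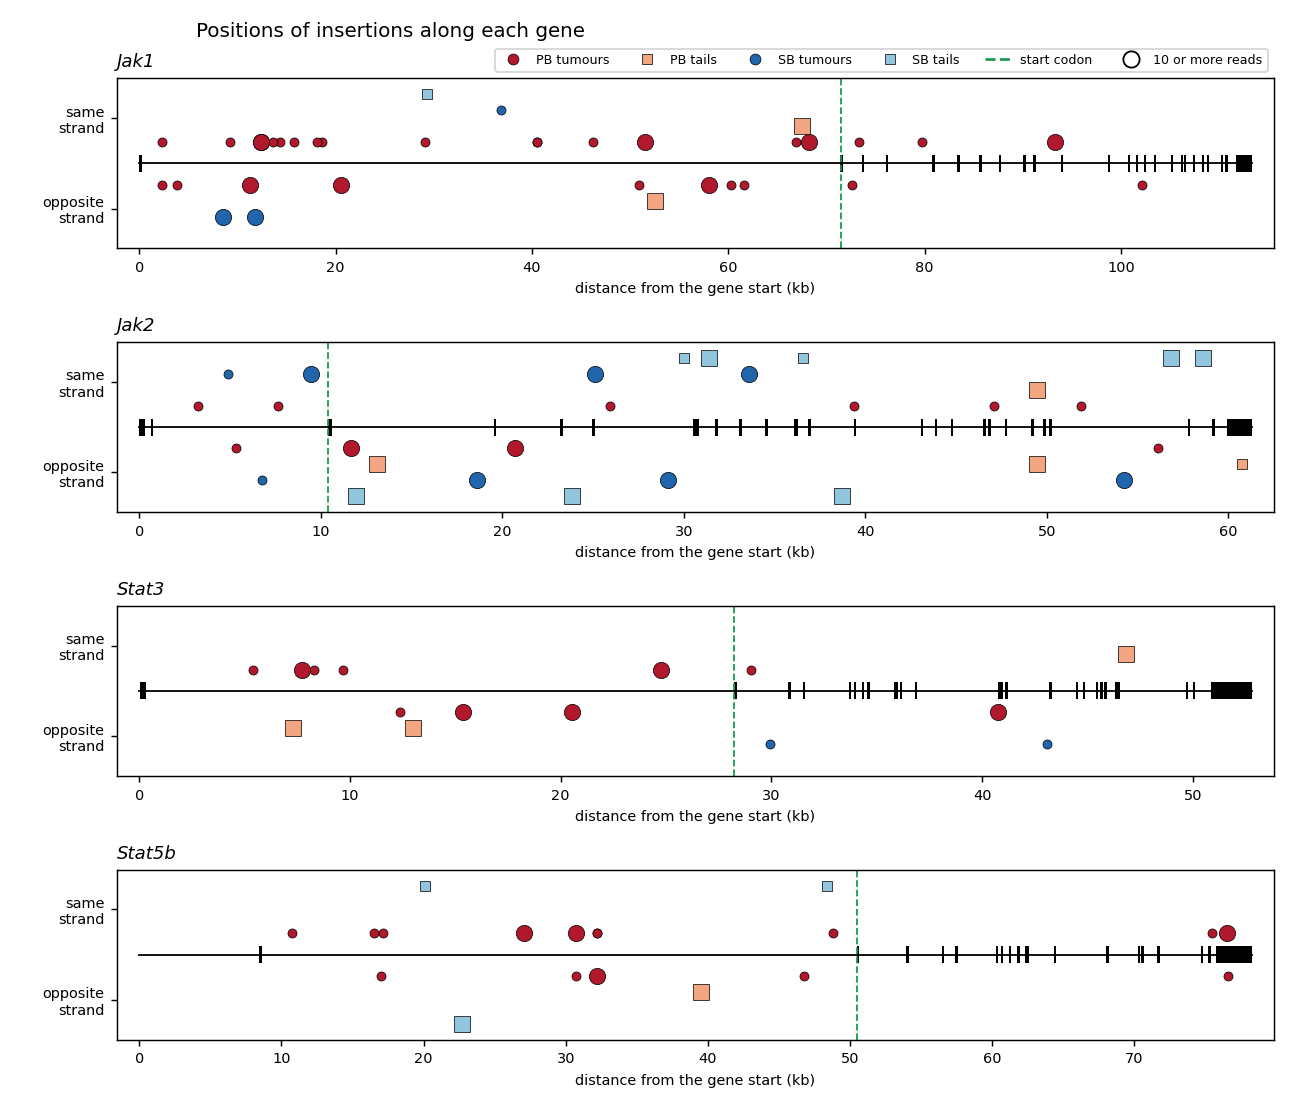
Insertions along Jak1, Jak2, Stat3 and Stat5b by distance from the gene start in kb, above the line where the strand was that of the gene and below where it was opposite. Black boxes are exons of the RefSeq transcript, the green line is the start codon, circles are tumours, squares are tails and large symbols have 10 or more reads. Most Jak1, Stat3 and Stat5b insertions of PB tumours (25 of 30, 8 of 10 and 13 of 16) lie left of the start codon, and those of Jak2 are spread along the gene.

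The pair of insertions with the most reads among all members were both in Jak1 intron 1. In PB tumour 12 an insertion had 412 reads, or 0.350% of the reads of the sample, and ranked 23rd of 4455. In PB tumour 7 another had 516 reads, or 0.286%, and ranked 81st of 9508. The remaining 28 had between 2 and 18 reads, and the median over the 30 was 5.5, where the median over all insertions in PB tumours was 6. Within their own samples, the Jak1 insertions of PB tumours had a median percentile by reads of 49.0. Thus 2 of 30 stood high in their sample, and the rest were spread over its read range.

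**Figure D3:**
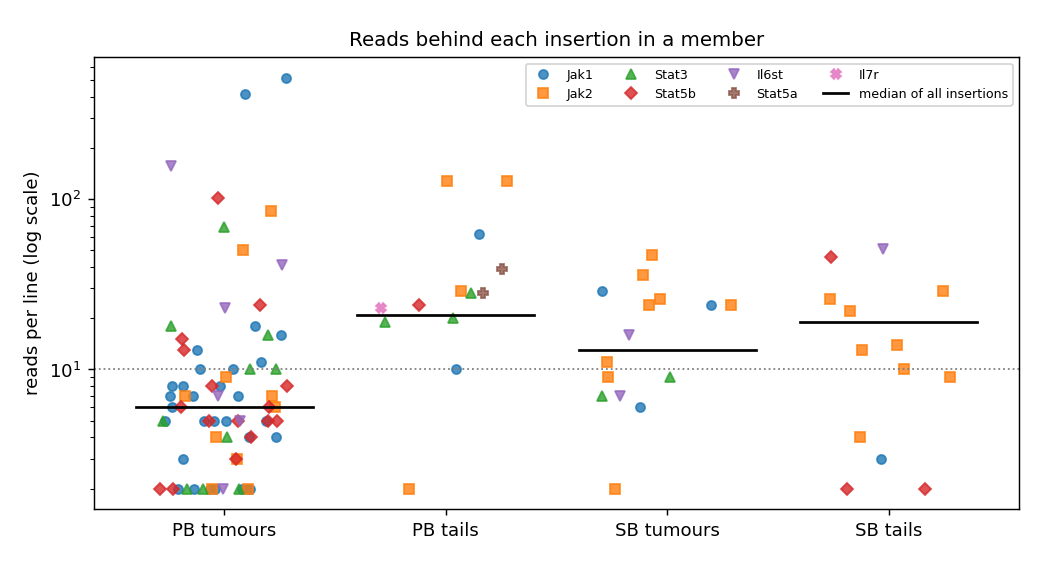
Reads of each line that was counted for a member (log scale), by group, with the median over all insertions of the group as a black bar and 10 reads as a dotted line; sideways spread is for visibility. A pair of Jak1 insertions in PB tumours had 412 and 516 reads, and most of the other PB tumour insertions had fewer than 10.

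In SB, Jak1 had 3 insertions in 3 of 11 tumours (29, 24 and 6 reads) and 1 insertion in 1 of 11 tails (3 reads), each of them in intron 1. These 4 insertions were below the minimum of 10 for a test. The number per sample was between 0 and 1 in both SB groups, so the counts of the groups overlapped entirely.

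Jak2 was hit at a higher rate in SB than in PB samples, and its rates in tumours and tails of 1 system lay within each other's intervals. It had 8 insertions in 4 of 11 SB tumours and 8 insertions in 5 of 11 SB tails, between 0 and 3 per tumour and between 0 and 2 per tail, both with a median of 0. The rates were 1.83 (0.788 to 3.60) and 1.58 (0.680 to 3.10) per 10000. In PB it had 10 insertions in 7 of 30 tumours, between 0 and 3 each, and 3 insertions in 3 of 12 tails, between 0 and 1 each, at rates of 0.637 (0.306 to 1.17) and 0.623 (0.129 to 1.82). Rates of PB and SB rest on different target motifs, and the difference between systems was not tested.

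The log2 fold change of Jak2 in tumours over tails was 0.21 ± 0.77 (SE) in SB (edgeR, adjusted p = 0.936) and 0.02 ± 0.96 (SE) in PB (edgeR, adjusted p = 0.995). The 95% intervals were -1.30 to 1.72 and -1.87 to 1.90, so changes of more than 2-fold either way lay within both. In PB, the rates were 0.729 in tumours and 0.936 in tails within the joined names, and 0.2998 and 0.374 within the separated names, so that tumours were below tails in both, and the joined names alone gave a log2 fold change of -0.39 with an adjusted p of 0.907 (edgeR). For SB, the joined names alone turned the sign as well, with a log2 fold change of -0.22 and an adjusted p of 0.970, the SB tumours having no other form.

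Jak2 insertions were spread along the gene: 3 of 10 in PB tumours and 3 of 8 in SB tumours preceded the start codon, and 0 of 8 in SB tails. All 16 SB insertions were intronic. In PB tumours 9 of 10 were intronic and 1 lay in coding exon 13 (PB tumour 19, 9 reads). PB tumour 3, the library with the most reads, held 3 of the 10. The insertion with the most reads in a PB tumour was in intron 3 of PB tumour 22, with 85 reads and rank 139 of 7446. The motif in intron 20 of PB tail 12 shown above had 128 reads on each strand, which were summed to 256. By that sum it ranked 14th of 5212, the highest rank of any member insertion, and it was in control tissue. Whether the 2 equal counts are the same reads listed again was not tested. Counted as reads in place of insertions, Jak2 in PB was lower in tumours, with a log2 fold change of -2.46 and an adjusted p of 0.187 (edgeR). What this value owes to PB tail 12 was not tested.

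Stat5b, Stat5a and Stat3 lie side by side on chromosome 11, from position 100780731 to 100939594. STAT5A and STAT5B carry signals of the IL-2 and IL-7 receptors and of growth hormone and prolactin, and STAT3 those of gp130 and of IL-10 and IL-21. Stat5b had 16 insertions in 11 of 30 PB tumours, between 0 and 3 per tumour with a median of 0, and 1 insertion in 1 of 12 PB tails. Of the tumours, 7 had 1, 3 had 2 and PB tumour 3 had 3. By count, the 4 tumours with at least 2 were above every tail, and the other 26 were within the range of the tails. Per 10000 kept insertions of a sample, PB tumours had between 0 and 6.23, and PB tails between 0 and 1.358. The split by rate was not the same, and more PB tumours were above every PB tail by rate than by count.

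The rate of Stat5b was 1.02 per 10000 in PB tumours (0.583 to 1.66) and 0.208 in PB tails (0.00526 to 1.16), and these intervals overlap. The log2 fold change was 2.29 ± 1.495 (SE), with an adjusted p of 0.254 (edgeR), and Stat5b was not called. It was 1.17 with an adjusted p of 0.783 for joined names alone and 0.03 with an adjusted p of 0.992 when reads were summed in place of insertions. Within the separated names the rate was 0.8995 in tumours, and the tails had no insertion. In SB the counts ran the other way, with no insertion in 11 tumours and 3 insertions in 2 of 11 tails, all in intron 1.

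Of the 16 Stat5b insertions in PB tumours, 13 were in intron 1 before the start codon (81.25%, 54.35% to 95.95%), where 71.6% of the TTAA sites of the gene precede it. Strands were mixed, with 10 of 16 as the gene (62.5%, 35.4% to 84.8%). Only 4 had at least 10 reads, and the median was 5.5. A single TTAA in intron 1, 32.2 kb from the gene start, was hit in 3 tumours: PB tumour 16 with 3 reads and PB tumour 20 with 8 reads on the minus strand, and PB tumour 30 with 24 reads on the plus strand. A second TTAA, 30.7 kb from the start, was hit on the minus strand in PB tumour 17 (13 reads) and on the plus strand in PB tumour 18 (6 reads). In Jak1, a TTAA 2.32 kb from the start was likewise hit on opposite strands in PB tumour 7 (8 reads) and PB tumour 18 (6 reads). Over all genes and intergenic regions, 3.67% of the 150513 TTAA sites hit in PB tumours were hit in at least 2 tumours and 0.439% in at least 3. No motif of a member was shared between samples of SB or between PB tails.

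Stat3 had 10 insertions in 7 of 30 PB tumours, between 0 and 3 each with a median of 0, and 3 insertions in 2 of 12 PB tails, between 0 and 2. By count, the groups overlapped apart from PB tumour 23, which had 3. Per 10000 kept insertions of a sample, PB tumours had between 0 and 3.897, and PB tails between 0 and 5.829. By rate, no PB tumour was thus above every PB tail. Over each whole group, the rates were 0.637 (0.306 to 1.17) in tumours and 0.623 (0.129 to 1.82) in tails per 10000. The log2 fold change was 0.03 ± 0.96 (SE; edgeR, adjusted p = 0.992; 95% interval -1.85 to 1.91). The 2 name forms differed in direction here, with rates of 0.324 in tumours and 0.468 in tails for joined names, and of 1.80 and 0.747 for separated names. Of the 10 insertions in PB tumours, 8 lay in intron 1, where 60.2% of the TTAA sites are. The 3 insertions of PB tumour 23 had 69, 16 and 10 reads, and the first of them ranked 237th of 8521. In SB there were 2 insertions, in 2 tumours, and none in tails.

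Stat5a had no insertion in any tumour. Its only insertions were 2 in intron 6 in PB tail 8, with 39 and 28 reads. The gene is short, with 57 TTAA sites against 359 in Stat5b and 605 in Jak1. Socs1, which encodes an inhibitor of JAK kinase activity, spans 1.73 kb with 4 TTAA sites and 40 TA sites, and 0.0501 insertions were expected in it over all PB tumours. With so few expected, a loss of insertions in Socs1 was not detectable at this depth. Lines named intergenic within 50 kb upstream of it numbered 6 in 6 PB tumours and 2 in 2 PB tails, and downstream 2 in 2 PB tumours, 2 in 2 PB tails and 1 each in SB tumours and SB tails.

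Over all genes with at least 10 insertions, 71 of 3305 (2.15%) were called higher in PB tumours than in PB tails and 76 (2.30%) lower. TMM scaling moved this split to 126 higher and 45 lower. Of the members, 4 could be tested (Jak1, Jak2, Stat3 and Stat5b), and 0 were called. At an unadjusted p under 0.05, 2 of these 4 passed, Jak1 (p = 0.0107, edgeR) and Stat5b (p = 0.0496, edgeR), where 651 of 3305 genes (19.7%) did. Both reached the minimum of 10 insertions through the tumours, with 30 and 16 there and 2 and 1 in tails. A member with few insertions in tumours could hardly enter the test, so nothing is drawn from this share of the members. For Jak1 the adjusted p was 0.200 in DESeq2, which gave none for the other 3, and 0.311 in Fisher's exact test on the number of samples hit, which called none of the 4. Among 1124 genes tested in SB, 7 (0.623%) were called higher in tumours and 2 (0.178%) lower. Only Jak2 of the members had enough insertions there, and it was not called (unadjusted p = 0.783, edgeR, where 101 of 1124 genes were under 0.05). Its adjusted p was 0.992 in DESeq2 and 1 in Fisher's exact test.

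Whether the change from tails to tumours differed between PB and SB was tested in 1 model over all 64 samples. None of 4292 genes was called (0%), and 395 had an unadjusted p under 0.05. Stat5b, with 16 insertions in PB tumours, 1 in PB tails, none in SB tumours and 3 in SB tails, had the smallest unadjusted p of the 4 members tested (p = 0.0088, adjusted p = 0.404, edgeR). For Jak1 the log2 difference between systems was 0.43 ± 1.99 (SE; edgeR, adjusted p = 0.9998) and for Jak2 it was -0.20 ± 1.225 (SE; edgeR, adjusted p = 0.9998). Stat3 had an adjusted p of 0.6065 (edgeR). The intervals of Jak1 (-3.48 to 4.33) and Jak2 (-2.60 to 2.20) hold differences of more than 4-fold in both directions.

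The second question was whether a gene held more insertions than its number of TTAA or TA sites gives, with the insertions of its chromosome spread evenly over the sites. The paper reports that both systems, PB more than SB, insert more often near genes and open chromatin. No correction for such preferences was applied, so a call is an excess over the number of target sites only. Here an insertion counted for a gene where it lay within the RefSeq gene, which gave 17 in place of 16 insertions for Stat5b and 8 in place of 6 for Il6st in PB tumours. By a Poisson model, whose excess was tested in 1 direction by Wald's method and Bonferroni corrected, 1121 of 22553 genes were called in PB tumours (4.97%), and 1 of the 9 members, Jak1. Jak1 had 30 insertions where 6.96 were expected, a ratio of 4.31 (exact Poisson interval 2.91 to 6.16; adjusted p = 1.354e-11, Poisson model). It ranked 296th of the genes by p, and in PB tails it had 2 insertions where 2.22 were expected. The Poisson p comes from counts summed over the PB tumours and does not measure the spread between them.

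Stat5b, with 17 insertions where 5.85 were expected in PB tumours (ratio 2.91, 1.69 to 4.66), was not called, with an adjusted p of 0.122. It was called without PB tumour 8, 15, 22 or 23, none of which held a Stat5b insertion, with an adjusted p from 0.03275 to 0.0498 (Poisson model). Il6st had 8 where 3.38 were expected (ratio 2.36, 1.02 to 4.66) and Stat3 10 where 4.38 were expected (ratio 2.28, 1.10 to 4.20), both with an adjusted p of 1. Jak2 had 10 where 7.43 were expected (ratio 1.35, 0.645 to 2.47). Il7r had none where 2.03 were expected, which allows a ratio of up to 1.81, and Stat5a and Il2rb had none where 0.928 and 0.763 were expected.

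**Figure D4:**
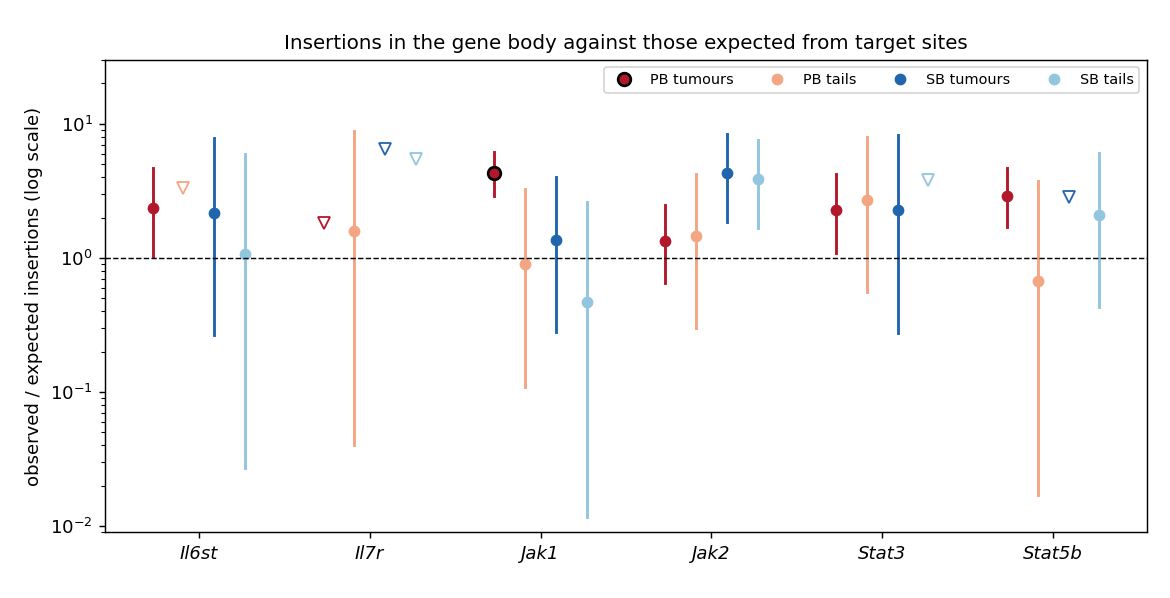
Insertions observed in the gene over those expected from its TTAA (PB) or TA (SB) sites (log scale), for the 6 members with at least 2 insertions expected in PB tumours, by group. Bars are 95% exact Poisson intervals, open triangles are upper bounds where no insertion was observed, and a black ring marks a called gene. Jak1 in PB tumours, at 4.31, is the only ringed point, and Jak2 in SB is near 4 in tumours and in tails.

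The Jak1 call was lost under a read minimum. With at least 10 reads, 8 insertions were left where 2.53 were expected, and although the ratio was 3.16, the adjusted p was 1 and Jak1 was not called. Counted as presence per sample, Jak1 was hit in 18 tumours where 6.06 were expected, a ratio of 2.97, and the adjusted p of 0.0439 (Poisson model) was just under the threshold. With 10 kb added on each side of the gene the ratio was 3.775, and it was from 3.83 to 4.62 when each of the 30 PB tumours was left out in turn. Jak1 was called in each of these, and with the exact Poisson test and Benjamini-Hochberg correction.

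In SB tumours 95 of 23858 genes (0.398%) were called, in PB tails 282 of 22553 (1.25%) and in SB tails 43 of 23858 (0.180%), with 0 of the 9 members in each of them. The member nearest to a call was Jak2, with 8 insertions where 1.87 were expected in SB tumours (ratio 4.27, 1.84 to 8.41; adjusted p = 0.482) and 8 where 2.08 were expected in SB tails (ratio 3.85, 1.66 to 7.59; adjusted p = 1). The unadjusted p was 2.021e-05 and 6.782e-05 from the Poisson model, and with Benjamini-Hochberg in place of Bonferroni correction Jak2 was called in both groups. That correction called 307 of 23858 genes in SB tumours and 167 in SB tails, more than the 95 and 43 above. The ratio in tumours was within the interval of the ratio in tails. The exact Poisson test called 0 members in each of these 3 groups. Over all genes it called 32 in SB tumours, 83 in PB tails and 13 in SB tails.

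Jak1 insertions were found in several tissues: in 4 of 5 PB tumours labelled LN, 4 of 6 labelled MES LN, 4 of 9 labelled MES MASS and 3 of 6 labelled SPLEEN. The number of Jak1 insertions in a PB tumour and its total of insertions had a Pearson r of 0.311 (permutation test, p = 0.0932) and a Spearman rho of 0.309 (permutation test, p = 0.0971; n = 30, the single relation of this kind computed), and r was 0.452 without the 2 tumours farthest from the median total. The relation was not significant over the 30 tumours.

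Beside the 9 members, 85 other genes of the pathway were placed in 9 lists, of which 81 could be tested against their target sites. In PB tumours 9 of them (11.1%) were called, in PB tails 3 (3.70%), in SB tumours 2 (2.47%) and in SB tails 1 (1.23%), where the shares over all genes were 4.97%, 1.25%, 0.398% and 0.180%. The median ratio of observed to expected insertions over these genes was 1.85 in PB tumours, and 0.7585 over all genes tested. In the comparison of PB tumours with PB tails, 12 of the 85 had enough insertions, and 0 were called by edgeR, with 4 at an unadjusted p under 0.05, among them Ptpn1 and Ccnd3, higher in tumours, and Bcl2, lower in tumours. In SB 4 had enough insertions, and 0 were called, with Ptpn2 at an unadjusted p under 0.05, where 101 of 1124 genes (8.99%) were. The lists were drawn up with results of these data known, so their shares do not stand as independent evidence.

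The list of inhibitors held the most calls, with 6 of 15 genes in PB tumours. These were the phosphatase genes Ptpn1 (17 insertions where 1.75 were expected), Ptpn2 (20 where 5.20 were expected) and Ptpn6 (7 where 0.565 were expected), the adaptor gene Sh2b3 (7 where 0.647 were expected), the SOCS family gene Socs6 (13 where 2.55 were expected) and the PIAS family gene Pias1 (27 where 10.1 were expected). Ptpn2 was also called in SB tumours, with 9 insertions where 1.25 were expected, and Sh2b3 in SB tumours and in SB tails, with 4 insertions in each where 0.2185 and 0.293 were expected. The gene column named Socs6 for 27 insertions in PB tumours and 9 in PB tails, more than the 13 and 2 within the RefSeq gene. Pias2 had 22 where 8.98 were expected in PB tumours and was not called.

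Of the other STAT genes, Stat4 had 17 insertions in PB tumours where 8.83 were expected and Stat2 had 3 where 1.11 were expected, and neither was called. Of the other Janus kinase genes, Jak3 had 2 insertions and Tyk2 none by the gene column in PB tumours, and neither was called. Of 6 common gamma chain and TSLP receptor genes, Il21r was called (9 insertions where 1.13 were expected), followed by Il15ra with 4 where 1.88 were expected, and of 11 STAT target genes Ccnd3, which encodes cyclin D3 (23 where 4.725 were expected), followed by Bcl2 (14 where 10.4 were expected) and Bcl6 (5 where 1.09 were expected). No gene was called in PB tumours among 11 genes of gp130 and IL-12 family receptors, 8 of common beta chain and homodimeric receptors, 10 of interferon and IL-10 family receptors, and 14 of cytokine ligands. The genes with the most insertions in them by the gene column were Il12rb2, Il23r and Lepr (5 each), Ghr, Prlr and Csf2rb (18, 14 and 2), Ifnar2, Ifngr1 and Ifnlr1 (8, 6 and 4), and Il15 and Il7 (10 and 5) followed by Il4 and Il21 (3 each). The 3 genes called in PB tails were Lifr (10 where 2.30 were expected, 4 of them named so in the table), Il20rb (6 where 0.495 were expected) and Bcl2 (13 where 3.10 were expected), none of which was called in PB tumours.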

How the data were processed

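Insertions were analysed from 1 table of 385883 lines, deposited by the authors as raw counts of reads per insertion and sample, not normalized, with positions on GRCm38 (mm10) and a gene column. Sheared DNA was ligated to splinkerette adapters, and junctions of the transposon ends were amplified and sequenced (QiSeq). The aligner and caller were not given in the sources used here. No line had fewer than 2 reads. A further per-sample column (1) of normalized coverage was not used.

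Each position was assigned to the closest target motif up to 5 bp away, and 2151 PB and 129 SB lines without a motif were dropped. Sex chromosomes and chromosome 14, which had the highest insertion density of the autosomes in both systems and was taken as the donor, were left out. In 423 lines the gene name reads as a date. Depth is given in the report.

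The 9 members, the pathway lists and the tests were chosen with earlier results of these data known. All members are named, and a listed gene is named where it was called or is among the 3 of its list with the most PB tumour insertions, except for a gene that is not reported here. Insertions per gene were compared with edgeR 4.0.16 (glmQLFit and glmQLFTest, kept insertions as library size, at least 10 insertions per gene), with Benjamini-Hochberg adjustment over all genes tested and a threshold of 0.05. The log2 fold changes are unshrunken estimates with quasi-likelihood SE. For selection, a Poisson model with the target sites of each RefSeq gene and the insertions of its chromosome gave the expected number, an excess was tested one-sided by Wald's method with Bonferroni correction, and calls also needed 3 samples, and 5% of the group, to be hit. All sites of a chromosome were taken as equally likely, without a correction for insertion preferences of the transposons. Intervals are 95%. Each sample has a name of its own, which was taken as a separate mouse. The p-values of edgeR and DESeq2 measure the spread between these samples. Those of the Poisson model come from counts summed over a group and do not measure that spread. DESeq2 1.42.0, Fisher's exact test, TMM and other alternatives are described below. R 4.3.3, Python 3.11.15, scipy 1.17.1, pandas 2.3.3, numpy 2.4.6 and matplotlib 3.10.9 were used.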

Additional observations from a re-analysis of the deposited data

How the results depend on the processing

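No member was called between tumours and tails, or for a difference between PB and SB, under any alternative run. For tumours against tails this includes each sample left out in turn, which was not run for the difference between systems. In PB, Jak1 kept its direction in the 12 alternatives that gave it a value (separated names did not), with log2 fold changes from 1.28 (at least 10 reads) to 2.90 (reads summed), and from 1.996 to 3.08 when samples were left out, and Stat5b kept its own in 11 (0.03 to 2.56), having too few insertions with separated names or at least 10 reads. Over all genes in PB, calls higher and lower in tumours came to 34 and 42 with DESeq2, 6 and 1 with Fisher's exact test, 28 and 43 without the minimum of insertions, 230 and 131 for reads summed, 11 and 22 for joined names and 17 and 11 for separated names. In SB they came to 1 and 1 with DESeq2, 0 and 1 with Fisher's exact test and 21 and 6 with all chromosomes kept. Counting every line as deposited, an alternative chosen after seeing the data, gave an adjusted p of 0.0928 for Jak1 (edgeR). Values near 0 turned sign: Jak2 in PB was -0.14 with 10 kb on each side, -2.46 for reads summed, -0.40 for lines as deposited, -0.39 for joined names, -0.37 with the name form as a term, -0.19 in DESeq2, -0.10 by samples hit and from -0.39 to 0.55 with samples left out, and Stat3 was -0.57 for reads summed, -0.10 in DESeq2 and from -0.41 to 1.515. Jak2 in SB was -0.027 with TMM, -0.22 for joined names, -0.32 by samples hit and from -0.35 to 0.50. The difference between systems turned to -0.49 for Jak1 with at least 10 reads, a fitted value that depends on the prior count, and to 0.27 for Jak2 with TMM. The cause was not tested.

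For selection, Benjamini-Hochberg correction called 3 members in PB tumours (Jak1, Stat3 and Stat5b) and 1 each in SB tumours and SB tails (Jak2), and at least 10 reads left 0 in PB tumours. Leaving out samples gave from 1 to 2 in PB tumours, Stat5b being called without tumour 8, 15, 22 or 23 (adjusted p from 0.03275 to 0.0498, Poisson model). The calls over all genes in PB tumours fell from 1121 to 646 with the exact Poisson test, 497 by presence per sample and 479 with at least 10 reads, and rose to 2850 with Benjamini-Hochberg correction. In SB tumours and SB tails that correction called 307 and 167 genes, against 95 and 43 with Bonferroni correction. Ratios crossed 1 for Jak2 in PB tumours (0.7385) and Stat5b in SB tails (0.962) with at least 10 reads, and with samples left out for Jak1 in SB tumours (0.978 to 1.62), Jak2 and Stat3 in PB tails (0.999 to 1.73 and 0.977 to 3.20) and Stat5b in SB tails (0.762 to 2.39). Separated names alone left no member with 10 insertions. No paired analysis was possible because the labels give no replicate numbers and do not say what the numbers in the sample names, some of which tumours and tails share, stand for.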

Other observations

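Insertions in lines named intergenic within 50 kb of the other members were also counted, without a test. Upstream of Jak2 there were 7 in 5 PB tumours and 3 in 3 PB tails. Downstream there were 4 in 4 PB tumours, none in PB tails and 1 in SB tumours. Upstream of Jak1 there were 4 in 4 PB tumours, 1 in PB tails and 2 in 2 SB tails, and none downstream in any group. Upstream of Stat3 there were 4 in 4 PB tumours and none in the other groups, and downstream 1 in a PB tumour. Stat5a had 1 upstream in a PB tumour, and Stat5b had 2 downstream in 2 PB tumours and 1 in PB tails.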
